A study of Mus musculus with 14 samples.

Results

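The 10 genes described here are imprinted genes that regulate growth, meaning genes transcribed mainly from the copy inherited from 1 parent. They are H19, Igf2, Igf2r, Dlk1, Meg3, Peg3, Plagl1, Mest, Ndn and Grb10. They were picked by name, each matched 1 row of the count table of 30503 genes, and all 10 were among the 17358 genes expressed highly enough to be tested. Expression was measured by bulk RNA-seq of 14 cultured clones, each grown from 1 tdTomato+ cell of mouse femoral bone marrow. Every mouse carried Fgfr3-creER, a tamoxifen-inducible Cre driven from Fgfr3, and 1 copy of the R26R tdTomato reporter, and received tamoxifen at postnatal day 21 (P21). The 5 Fgfr3-WT (P23) clones had no floxed Trp53 allele and were isolated at day 23. The 5 Fgfr3-p53 cKO (P28) clones and the 4 Fgfr3-p53 cKO (P4M) clones came from Fgfr3-creER; Trp53fl/fl; R26R(tdTomato/+) mice, at day 28 and at 4 months, and so had lost Trp53 in the cells that Cre reached. The groups are called WT, P28 and P4M below. WT and P28 clones were taken at passage 8 and P4M clones at passage 6 to 8, after long culture. The values are therefore those of clones that could be expanded and not of fresh marrow cells. Equal passage does not mean equal time in culture. The paper reports that cKO clones grew faster and that WT clones needed much longer to reach the same passage. The labels do not give the days in culture of each clone, so genotype and time in culture cannot be told apart.

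Imprinting is laid down as DNA methylation in the egg or the sperm and is kept through later cell divisions at control regions that serve whole clusters of genes. Igf2 encodes a fetal growth factor expressed from the paternal copy, and the neighbouring H19 gives a noncoding RNA from the maternal copy. Igf2r encodes the receptor that takes Igf2 to the lysosome, and Grb10 an adaptor that restrains insulin and Igf receptor signalling, and both are expressed mainly from the maternal copy in most tissues. Dlk1, a transmembrane protein of the Notch ligand family that holds back adipogenesis, is expressed from the paternal copy, and the noncoding RNA Meg3 of the same cluster from the maternal one. Plagl1 and Peg3 encode zinc finger proteins, Mest a protein of the hydrolase family and Ndn the growth suppressor necdin, and all 4 are expressed from the paternal copy. Several of these genes are high in fetal tissue and fall after birth as growth slows. The libraries hold no information on the allele a read came from, nor on methylation, so parental expression is given as background only.

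Total counts ranged from 25688946 to 38958693 in WT, from 37606033 to 48648618 in P28 and from 43757832 to 52857424 in P4M. Values are CPM, the counts of a gene scaled to the library total, after TMM scaling unless TPM, the deposited values per transcript length, are named. A count of 0 allows a level as high as 3 counts, equal to 0.0564 to 0.121 CPM over the 14 clones. This limit covers counting error only. Trp53, the deleted gene, was present at 55.0 ± 7.68 CPM in WT (SD, n = 5), 2.47 ± 0.243 CPM in P28 (n = 5) and 2.10 ± 0.278 CPM in P4M (n = 4), and no cKO clone overlapped with WT. The summed level of 6 skeletal stromal markers was 363.9 to 4729 CPM in WT, 12280 to 22230 CPM in P28 and 8767 to 33870 CPM in P4M. Col1a2 made up nearly all of the higher sums, at 0.0326 to 0.842 CPM in 4 WT clones, 4354 CPM in WT replicate 5 and 7793 to 33260 CPM in the cKO clones. Without it the sum of the other 5 markers was 363.1 to 807.8 CPM in WT, 390.6 to 1429 CPM in P28 and 475.7 to 974 CPM in P4M. That of 5 chondrocyte markers was 746 to 22890 CPM in WT, 179.9 to 1497 CPM in P28 and 25.0 to 55.1 CPM in P4M. That of 5 osteoblast markers was 0.163 to 215.8 CPM in WT, 20.9 to 2691 CPM in P28 and 1424 to 3595 CPM in P4M. Markers of blood cells summed to at most 54.6 CPM in WT and at most 6.89 CPM in the cKO groups. In the highest clone, WT replicate 4, Cd68 alone was at 54.35 CPM, and the other blood cell markers counted were at 0.114 CPM or less each. Endothelial markers summed to at most 12.8 CPM, and of the skeletal muscle markers 1 of 5 was in the count table. The chondrocyte and osteoblast sums did not overlap between WT and P4M, whereas the stromal sums without Col1a2 overlapped between all groups. The part of these lists in the results was not tested. In bulk RNA of a clone, fewer cells with a transcript and less of it per cell cannot be told apart. The library names of all WT clones begin with 1 number and those of all cKO clones with another, and the labels do not say what it marks, so genotype and name prefix cannot be told apart. No WT clone was isolated at the ages of the cKO clones, so genotype and age at isolation cannot be told apart either. The labels do not say which mouse a clone came from, and the p values measure the spread between these clones.

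Against WT, 1 of the 10 genes was called in P28, and 38.9% of all tested genes were. In P4M 4 of the 10 were called, with a background of 45.9%, and in all cKO clones together 3 of the 10, with a background of 48.8%. Between P4M and P28 3 of the 10 were called, where the background was 7.22%. The calls are those of the quasi-likelihood test of edgeR at a Benjamini-Hochberg adjusted p under 0.05 over the 17358 genes. Igf2 rose in P28 and in P4M. Plagl1, Mest and Meg3 fell in P4M against both other groups. H19, Igf2r, Dlk1, Peg3, Ndn and Grb10 were not called by edgeR in any of the 4 comparisons, although DESeq2 or limma called H19, Peg3 or Grb10 in some of them and single clones of several of them differed by orders of magnitude. By direction, 19.2% of all genes were called higher and 19.7% lower in P28 against WT, 22.3% and 23.6% in P4M against WT, 23.1% and 25.7% in all cKO against WT, and 3.34% and 3.88% in P4M against P28. The median log2 fold change of the 10 genes was 0.42 in P28 against WT, -1.74 in P4M against WT, -0.85 in all cKO against WT and -1.85 in P4M against P28, beside -0.02, -0.06, -0.05 and -0.01 over all tested genes. Comparisons that share a group of clones are not independent of each other.

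**Figure D1:**
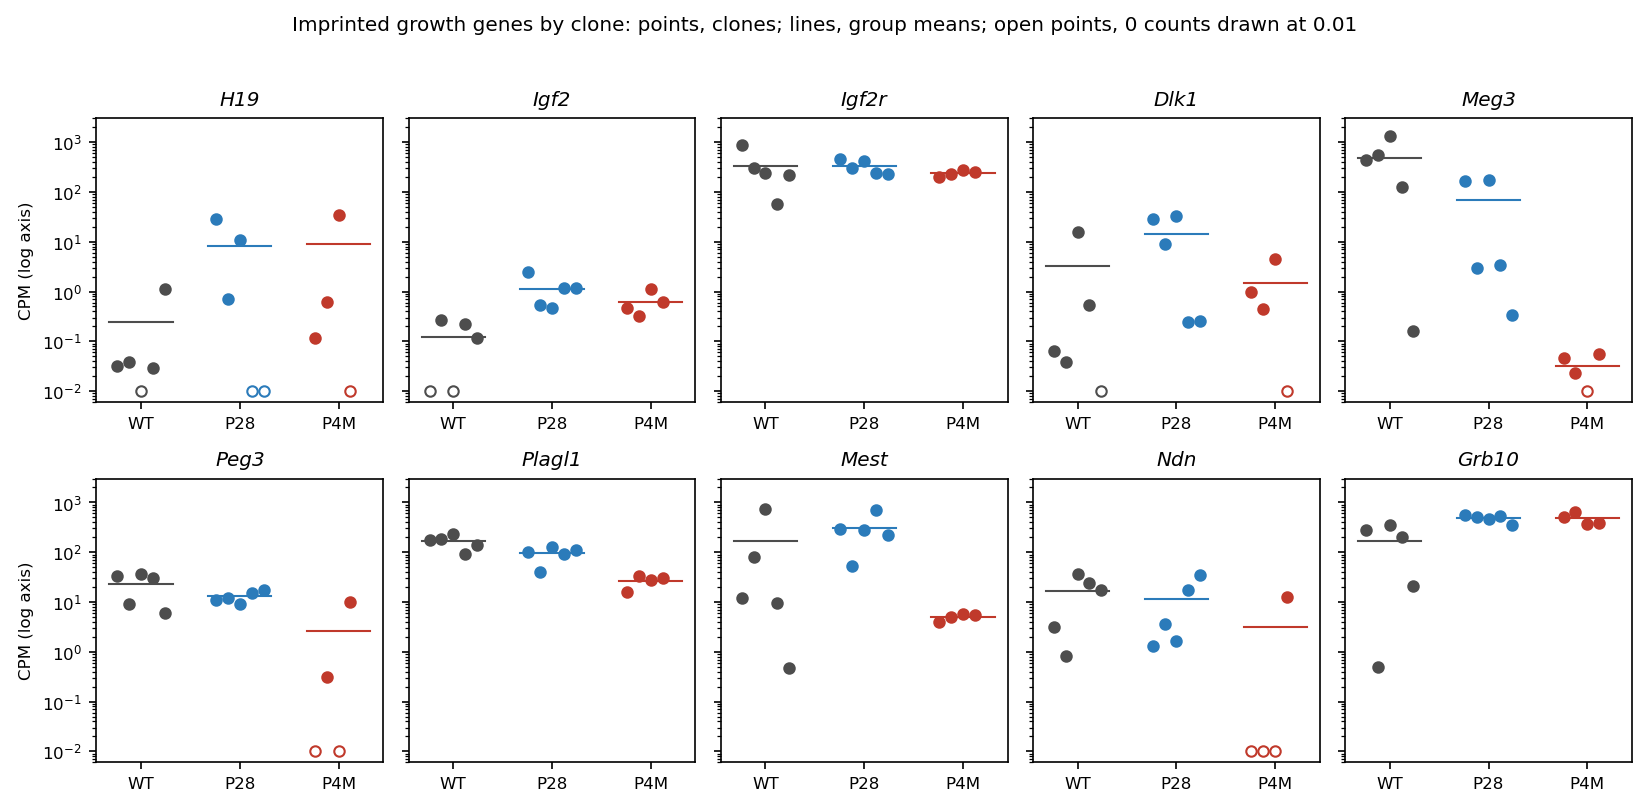
CPM of the 10 genes in each clone on a log axis, with group means as lines and clones at 0 counts as open points at 0.01. Meg3 lies at or below 0.0564 CPM in all 4 P4M clones, Mest lies between 3.95 and 5.73 CPM there, and H19, Peg3 and Ndn range from 0 to more than 10 CPM within P4M.

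**Figure D2:**
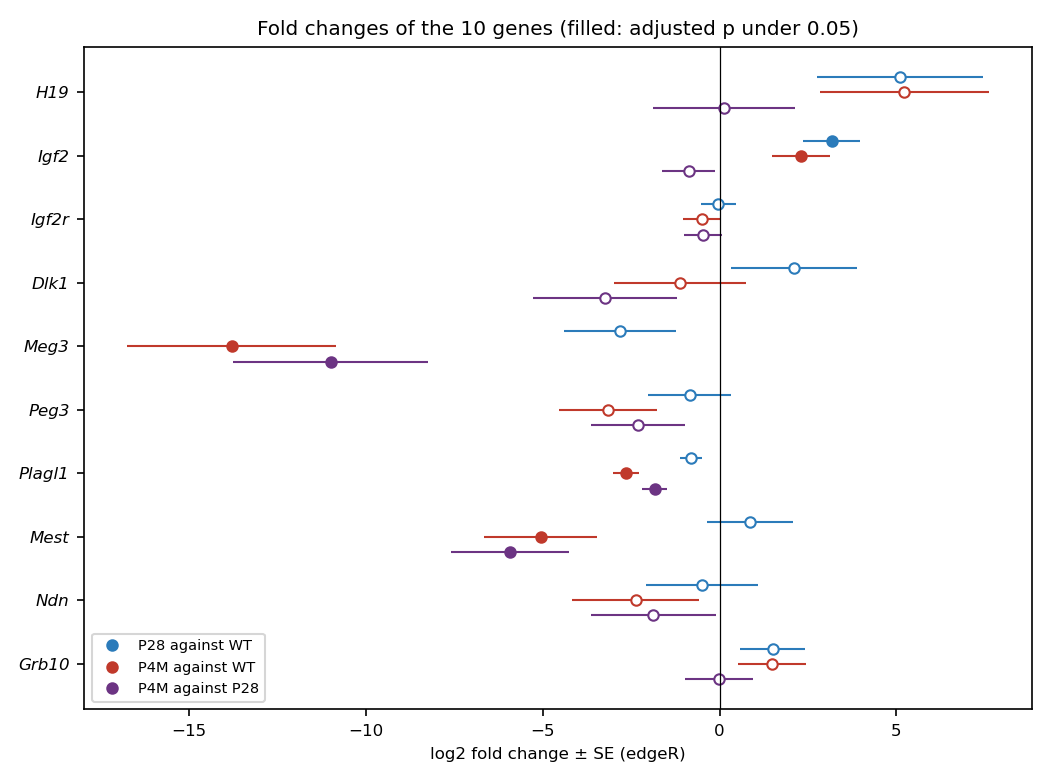
Log2 fold changes of the 10 genes with their standard errors from edgeR, in 3 comparisons, with filled points for an adjusted p under 0.05. The error bars are widest for Meg3, H19 and Dlk1 and narrowest for Plagl1.

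H19 lies on chromosome 7 of mm10 (142575529 to 142578143, minus strand), downstream of Igf2 (142650766 to 142666816, minus strand). In WT, H19 was counted 1, 1, 0 and 1 times in replicates 1 to 4 and 28 times (1.11 CPM) in replicate 5. In P28 the clones held 29.2, 0.717 and 10.8 CPM in replicates 1 to 3 and no read in replicates 4 and 5. In P4M they held 0.115, 0.614 and 34.9 CPM in replicates 1 to 3 and no read in replicate 4. Thus 3 clones stood above 10 CPM, 2 in P28 and 1 in P4M, while 3 other cKO clones had no H19 read at all. The group means were 0.241 ± 0.485 CPM (SD, n = 5), 8.14 ± 12.6 CPM (n = 5) and 8.92 ± 17.3 CPM (n = 4), and the ranges overlapped. The log2 fold change against WT was 5.10 ± 2.34 (SE) in P28 (edgeR, adjusted p = 0.1) and 5.23 ± 2.39 in P4M (adjusted p = 0.0891). WT replicate 5 decided the second of these, since without it the log2 fold change of P4M against WT was 8.29 with an adjusted p of 0.0453. P4M replicate 3 carried most of the P4M level, and without it that log2 fold change was 0.04. In all cKO against WT the log2 fold change was 5.16 ± 2.27 (edgeR, adjusted p = 0.0759), and DESeq2 called it (5.17, adjusted p = 0.0296).

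An exon of H19 contains miR-675, a microRNA that is processed from this RNA and is shown because its host was absent from some clones and high in others. Small RNAs were not sequenced, and the mature sequences from RefSeq (GRCm38.p6) are printed with the seed, bases 2 to 8, in capitals.
mmu-miR-675-5p: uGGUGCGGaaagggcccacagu
mmu-miR-675-3p: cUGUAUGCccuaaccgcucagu

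Igf2 was low in every clone. The WT clones held 0, 0.268, 0, 0.228 and 0.119 CPM. The P28 clones held 2.43, 0.526, 0.457, 1.17 and 1.15 CPM. The P4M clones held 0.461, 0.319, 1.13 and 0.601 CPM. All 9 cKO clones lay above all 5 WT clones, yet the highest, P28 replicate 1, rested on 113 counts. Igf2 rose in P28 by a log2 fold change of 3.17 ± 0.80 (edgeR, adjusted p = 0.0074) and in P4M by 2.31 ± 0.82 (adjusted p = 0.0338). The call in P28 was made in all 14 fits from which 1 clone was omitted, and the call in P4M in 10 of 14. It was lost without WT replicate 3 (adjusted p = 0.0544), WT replicate 5 (0.057), P4M replicate 3 (0.1) or P4M replicate 4 (0.0573). It was also lost with only the groups compared (0.0543), with a minimum log2 fold change of 1 (0.153) and with limma on log2(TPM + 1), where the log2 fold change was 0.31 (0.226). The difference of Igf2 between P4M and P28 did not pass (log2 fold change -0.87 ± 0.75, adjusted p = 0.5). Over the 14 clones the log2 CPM of H19 and Igf2 had a Pearson r of 0.427, and their deviations from the group means one of 0.224, as a description of clones that differ in depth and in name prefix.

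Igf2r, the clearance receptor of Igf2, lies on chromosome 17 (12682406 to 12769664, minus strand) and was abundant throughout. The WT clones held 860.0, 309.5, 234.8, 58.2 and 218.7 CPM. The P28 clones held 468.8, 296.7, 411.5, 240.1 and 229.4 CPM, and the P4M clones 196.2, 229.1, 270.3 and 255.1 CPM. WT replicate 1 was the highest of all clones and WT replicate 4 the lowest, and both cKO groups lay between them. The log2 fold change was -0.03 ± 0.49 in P28 (edgeR, adjusted p = 0.967) and -0.50 ± 0.53 in P4M (adjusted p = 0.463), and its sign changed without WT replicate 1, to 0.64 and 0.19. Airn, the noncoding RNA antisense to Igf2r, was counted at most 439 times in a clone. The libraries do not keep the strand, so reads from the overlap of both genes cannot be told apart.

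Grb10 (chromosome 11, 11930508 to 12038683, minus strand) was high in all 9 cKO clones. The P28 clones held 559.0, 502.4, 460.9, 535.4 and 356.3 CPM, and the P4M clones 500.6, 634.6, 375.9 and 395.4 CPM. The WT clones were uneven, at 277.9, 0.497, 350.0, 204.2 and 21.01 CPM. No cKO clone fell into the WT range, but WT replicates 2 and 5 lay far below the other WT clones. The log2 fold change was 1.5 ± 0.92 in P28 (edgeR, adjusted p = 0.213) and 1.48 ± 0.96 in P4M (adjusted p = 0.221), and the difference between P4M and P28 did not pass (-0.02 ± 0.95, adjusted p = 0.994). With limma on log2(TPM + 1) both were called (adjusted p = 0.0236 and 0.0426).

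Meg3 and Dlk1 belong to 1 imprinted cluster of chromosome 12, Dlk1 at 109452823 to 109463336 and Meg3 at 109541001 to 109571726, both on the plus strand. Meg3 was at 443.7, 561.9, 1319 and 124.6 CPM in WT replicates 1 to 4 and at 0.158 CPM, 4 counts, in WT replicate 5. The P28 clones held 169.3, 2.92, 174.3, 3.38 and 0.333 CPM. The P4M clones held 2, 1, 0 and 3 counts, or at most 0.0564 CPM. So 4 of 5 WT clones and 2 of 5 P28 clones were above 100 CPM, and no P4M clone was above the limit that a count of 0 allows. Summed over the P4M clones, 6 counts gave 0.0314 CPM with an exact Poisson 95% interval of 0.0115 to 0.0683 CPM. The WT mean of 489.9 CPM was 15600-fold this level (7170 to 42500), and the P28 mean of 70.0 CPM was 2230-fold (1030 to 6080), with intervals that cover the counting error of the P4M counts only. Meg3 fell in P4M against WT (log2 fold change -13.79 ± 2.94, edgeR, adjusted p = 0.00226) and against P28 (-10.99 ± 2.75, adjusted p = 0.0311). These fitted values depend on the small prior count that edgeR adds. The first call was made in all 14 fits with 1 clone omitted and the second in 8 of 14. The second was lost without P28 replicate 1 or 3 or any 1 of the P4M clones, with adjusted p values of 0.0622 to 0.0869. It was also lost without a filter on low counts (0.0635), with a minimum log2 fold change of 1 (0.124) and with limma on log2(TPM + 1) (log2 fold change -4.13, 0.176). In P28 against WT the log2 fold change was -2.81 ± 1.58 (adjusted p = 0.176).

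The maternally expressed RNAs downstream of Meg3 were high and low in the same clones. Rian was at 39.5 to 366 CPM in WT replicates 1 to 4 and at 0 in WT replicate 5. It was at 91.6 and 97.6 CPM in P28 replicates 1 and 3, at 2.48 CPM or less in the other 3 P28 clones, and at 2 counts or fewer in each P4M clone. Mirg was at 2.65 to 23.4 CPM in WT replicates 1 to 4, at 4.09 and 4.21 CPM in P28 replicates 1 and 3, and at most 0.191 CPM in the other 8 clones. Meg3, Rian and Mirg lie side by side on 1 strand, so they are not separate observations. The 250 bases before the RefSeq start site of Meg3 are on the plus strand of chromosome 12 at 109540746 to 109540995 (GRCm38.p6) and hold 10 CG pairs, the sites of DNA methylation, printed in capitals. Of 32851 promoter windows of this length, 37.8% hold as many or more, and the median is 6.
Meg3, chr12:109540746-109540995: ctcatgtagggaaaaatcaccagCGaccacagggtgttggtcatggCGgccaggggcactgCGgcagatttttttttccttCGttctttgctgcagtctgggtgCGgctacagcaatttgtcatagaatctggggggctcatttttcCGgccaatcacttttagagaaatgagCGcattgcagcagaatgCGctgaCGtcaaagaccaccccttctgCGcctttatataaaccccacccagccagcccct

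Dlk1 did not follow Meg3 in every clone. The WT clones held 0.0652, 0.0383, 15.7, 0.541 and 0 CPM. The P28 clones held 28.5, 8.96, 32.4, 0.242 and 0.256 CPM. The P4M clones held 0.992, 0.455, 4.52 and 0 CPM. P28 replicates 1 and 3 were the highest for Dlk1 and, within P28, for Meg3, whereas WT replicates 1 and 2 had over 400 CPM of Meg3 with 2 and 1 counts of Dlk1. The ranges of all 3 groups overlapped, and no comparison of Dlk1 passed (log2 fold change 2.12 ± 1.78 in P28 against WT, edgeR, adjusted p = 0.369). WT replicate 3 held most of the WT reads, and without it the log2 fold change was 6.34 (adjusted p = 0.0246). In P4M against WT the log2 fold change was -1.12 ± 1.87 (adjusted p = 0.654) and, without WT replicate 3, 3.11.

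Plagl1 (chromosome 10, 13060504 to 13131694, plus strand) separated the P4M clones from all others. The WT clones held 177.8, 187.1, 235.7, 91.6 and 136.9 CPM. The P28 clones held 102.5, 39.3, 129.2, 90.2 and 110.6 CPM, and the P4M clones 15.6, 32.6, 27.6 and 30.0 CPM. All 4 P4M clones lay below every WT and every P28 clone. Plagl1 fell in P4M against WT by 2.65 ± 0.37 on the log2 scale (edgeR, adjusted p = 0.000144) and against P28 by 1.83 ± 0.35 (adjusted p = 0.0119), and both calls were made in all 14 fits with 1 clone omitted. In P28 against WT the log2 fold change was -0.81 ± 0.32 (adjusted p = 0.0567), which passed without WT replicate 4 (0.0275), P28 replicate 3 (0.0445) or P4M replicate 1 (0.0478).

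Mest (chromosome 6, 30723547 to 30748465, plus strand) was at 12.3, 82.0, 740.5, 9.53 and 0.475 CPM in WT and at 297.0, 52.9, 276.8, 691.4 and 224.9 CPM in P28. The P4M clones were close together at 3.95, 5.05, 5.73 and 5.54 CPM. The P4M range lay inside the wide WT range and below the whole P28 range. Mest fell in P4M against WT (log2 fold change -5.06 ± 1.59, edgeR, adjusted p = 0.0197) and against P28 (-5.93 ± 1.66, adjusted p = 0.0475). Without WT replicate 3, the highest WT clone, the first became -2.36 (adjusted p = 0.0845), and without P4M replicate 1 it was -4.96 (0.0534). It was also lost with a minimum log2 fold change of 1 (0.0596) and with limma on log2(TPM + 1) (-2.05, adjusted p = 0.202). The second was called in 4 of the 14 fits with 1 clone omitted. It was lost without WT replicate 2 or any 1 of the P28 or P4M clones, with adjusted p values of 0.0523 to 0.125. It was also lost without a filter on low counts (0.0904) and with a minimum log2 fold change of 1 (0.1835), and limma on log2(TPM + 1) called it (-5.25, adjusted p = 0.0206). In P28 against WT the log2 fold change was 0.87 ± 1.22 (edgeR, adjusted p = 0.602). WT replicate 3 decided this one too, since without it the value was 3.56 (adjusted p = 0.0216), and limma called it with all clones (3.19, adjusted p = 0.043). The gene Copg2, which overlaps the end of Mest on the opposite strand, was counted up to 3917 times in a clone. An intron of Mest holds miR-335, whose mature strands, not measured here, are given because their precursor is transcribed with this gene. Capitals mark the seed.
mmu-miR-335-5p: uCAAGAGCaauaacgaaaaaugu
mmu-miR-335-3p: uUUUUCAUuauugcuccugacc

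Peg3 and Ndn lie far apart on chromosome 7, Peg3 at 6703892 to 6730431 on the minus strand and Ndn at 62346569 to 62350262 on the plus strand. Peg3 was at 34.0, 8.99, 37.2, 31.0 and 6.05 CPM in WT and at 10.9, 12.3, 9.04, 15.4 and 17.7 CPM in P28. In P4M it had 0 counts, 14 counts (0.319 CPM) and 0 counts in replicates 1 to 3, and 10.2 CPM in replicate 4. Ndn was at 3.13, 0.842, 36.7, 23.9 and 17.8 CPM in WT and at 1.29, 3.66, 1.67, 17.7 and 34.1 CPM in P28. In P4M it had no read in replicates 1 to 3 and 677 counts (12.7 CPM) in replicate 4. In both genes P4M replicate 4 lay inside the ranges of WT and P28 while the other 3 P4M clones lay below every WT and P28 clone. The log2 fold change in P4M against WT was -3.15 ± 1.38 for Peg3 (edgeR, adjusted p = 0.0771) and -2.37 ± 1.80 for Ndn (adjusted p = 0.3). Peg3 was called lower in P4M against WT by DESeq2 (-3.14, adjusted p = 0.0318) and by limma on log2(TPM + 1) (-1.69, adjusted p = 0.00505). Limma also called it in all cKO against WT (-0.99, adjusted p = 0.0302) and in P4M against P28 (-1.41, adjusted p = 0.0483). Without P4M replicate 4 the edgeR log2 fold change in P4M against WT was -7.76 for Peg3 (adjusted p = 0.000693) and -12.32 for Ndn (adjusted p = 0.00496). In P28 against WT neither passed (Peg3 -0.84 ± 1.17, adjusted p = 0.595, and Ndn -0.49 ± 1.57, adjusted p = 0.828).

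The 250 bases before the RefSeq start sites (GRCm38.p6) of both genes are shown because Peg3 and Ndn were lowest in the same 3 P4M clones, with CG pairs in capitals. Peg3 has 8 CG pairs and Ndn 5, and 43.0% and 55.6% of all promoter windows of this length hold as many or more. The windows show which CG pairs lie there, not whether they were methylated. By the gene positions given above, which are from GENCODE, the Ndn window lies inside the gene, because the RefSeq start is further downstream. The table of start sites covers 9 of the 10 genes, and H19 has no entry.
Peg3, chr7:6730420-6730669, minus strand: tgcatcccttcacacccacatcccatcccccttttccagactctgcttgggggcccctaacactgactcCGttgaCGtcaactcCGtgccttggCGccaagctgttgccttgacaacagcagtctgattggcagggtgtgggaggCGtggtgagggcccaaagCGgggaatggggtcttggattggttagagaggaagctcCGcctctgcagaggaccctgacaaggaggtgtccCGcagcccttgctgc
Ndn, chr7:62348027-62348276, plus strand: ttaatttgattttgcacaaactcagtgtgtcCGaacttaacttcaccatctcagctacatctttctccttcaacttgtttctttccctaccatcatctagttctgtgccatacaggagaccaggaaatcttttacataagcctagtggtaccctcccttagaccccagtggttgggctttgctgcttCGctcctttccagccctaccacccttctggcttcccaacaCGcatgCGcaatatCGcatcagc

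The same 3 P4M clones were without reads of other paternally expressed genes of chromosome 7. Of 10 such genes with a row in the count table, 7 or 8 had more than 3 counts in each of the 10 WT and P28 clones and in P4M replicate 4. In P4M replicates 1, 2 and 3 it was 1, 2 and 1. Their summed level was 70.9 to 156.5 CPM in WT, 40.0 to 121.6 CPM in P28, and 0.484, 0.637, 1.13 and 65.9 CPM in P4M replicates 1 to 4. Kcnq1ot1, the noncoding RNA of the Kcnq1 cluster, had 378 to 739 counts in WT and 1109 to 1980 in P28, and 1, 0, 0 and 1417 in the P4M clones. Snrpn, which encodes a splicing protein and shares the Prader-Willi region with Ndn, had 39 to 2095 counts in WT and P28, and 0, 0, 0 and 528 in P4M. Mkrn3 and Peg12 of that region also had 0, 0 and 0 counts there, and 72 and 231 in P4M replicate 4. These 4 genes were chosen after their values were seen. Igf2 was an exception, with 20, 14 and 57 counts in P4M replicates 1 to 3. The other reads left in the sums were 1 of Kcnq1ot1 and the 14 of Peg3. The maternally expressed Zim1, next to Peg3, had 0 counts in the same 3 clones and 13 in P4M replicate 4, but it had at most 25 counts in any clone.

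This absence was rare in the transcriptome of these clones. Of 12757 genes with at least 10 counts in each of the 10 WT and P28 clones, 11, 21 and 17 had at most 1 count in P4M replicates 1, 2 and 3, and 3 had in replicate 4. Paternally expressed genes of chromosome 7 were 6 of the 11, 5 of the 21 and 6 of the 17, and none of the 3. They were Peg3, Ndn, Peg12, Mkrn3, Kcnq1ot1 and Snrpn, with Peg3 left out of the second set by its 14 counts. No other paternally expressed gene of chromosome 7 looked at here had at least 10 counts in each WT and P28 clone. Of the 11, 21, 17 and 3 genes, 6, 7, 10 and 0 lay on chromosome 7. Those outside the paternally expressed set were Aen and Svip in replicate 2, and Eps8l2, Acan, Trim12a and Svip in replicate 3. The share of chromosome 7 among the 12757 genes was not taken, so these counts do not show an excess on that chromosome. The 16 paternally expressed genes of other chromosomes were not lost together in this way. In P4M replicates 1 to 4, 12, 11, 13 and 10 of them had more than 3 counts, beside 9 to 13 in WT and 14 to 16 in P28. Their summed level was nevertheless lower in all 4 P4M clones, at 174.2 to 213.1 CPM, than in WT (288.1 to 1207 CPM) and P28 (336.9 to 998 CPM), and Plagl1 and Mest are among them. Peg10 and Sgce of chromosome 6, for example, were at 31.9 to 60.3 CPM and 54.6 to 66.6 CPM in the P4M clones.

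**Figure D3:**
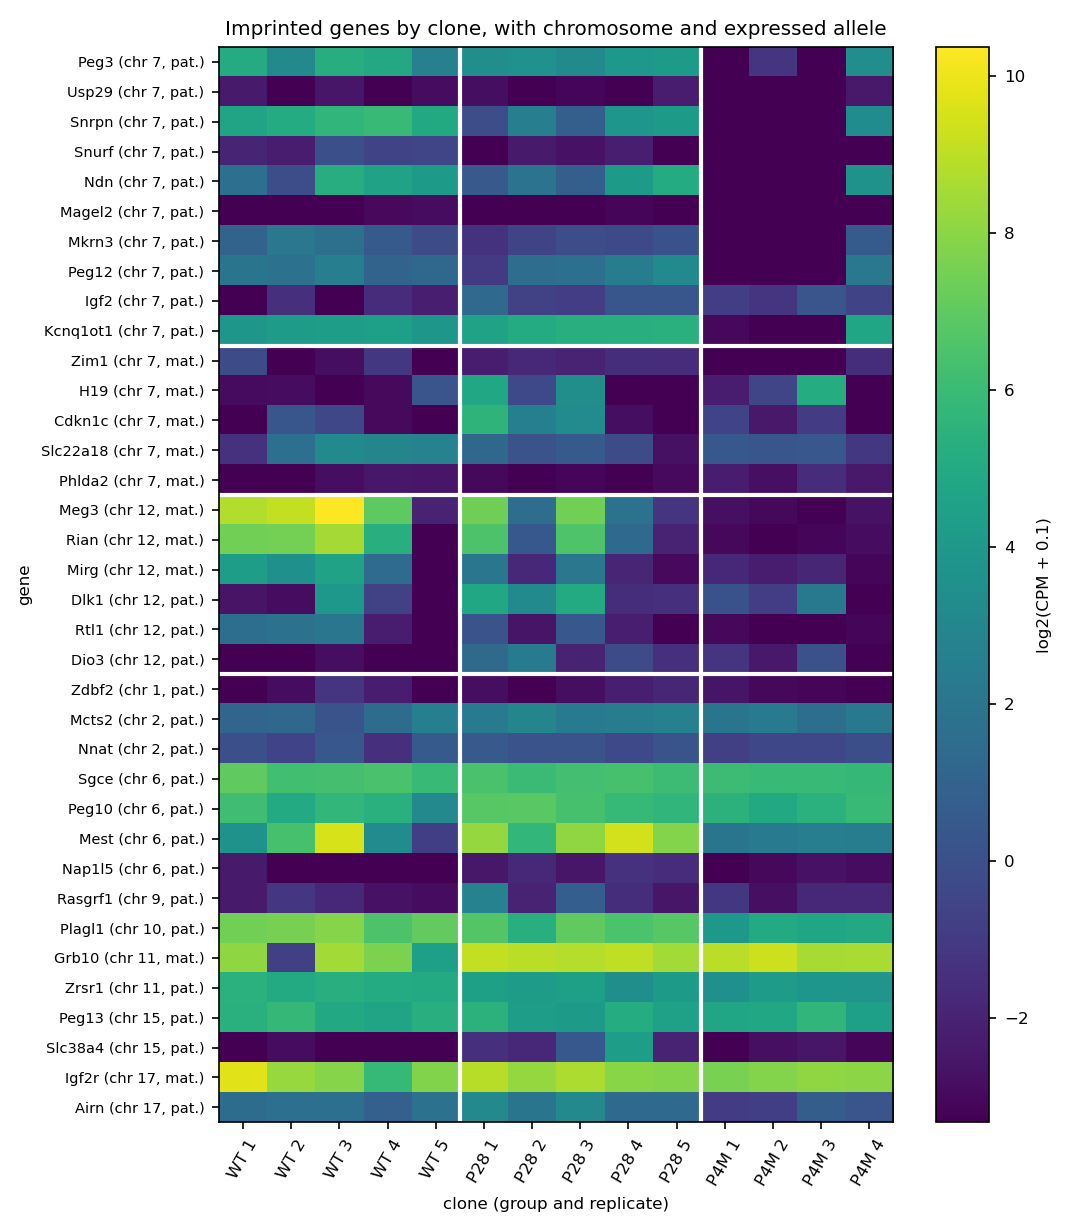
Log2(CPM + 0.1) of 36 imprinted genes (rows, with the chromosome and the parental copy they are known to be expressed from) in the 14 clones (columns). The block of paternally expressed genes of chromosome 7 is dark in P4M replicates 1 to 3 except Igf2, and Meg3, Rian and Mirg are dark together in WT replicate 5 and all P4M clones.

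H19 ran the other way in some of the cKO clones. It had no read in P28 replicates 4 and 5 and P4M replicate 4, the clones in which Peg3, Ndn, Snrpn and Kcnq1ot1 had 528 counts or more each. In P4M replicates 1 to 3, where these 4 genes had 14 counts or fewer each, H19 had 5, 27 and 1769 counts. P28 replicates 1 to 3 held both, with 30 to 1356 counts of H19 and 39 or more of each of the 4 genes. Cdkn1c, the maternally expressed inhibitor of cyclin-dependent kinases on chromosome 7, had 2209, 248, 492, 2 and 0 counts in the P28 clones and 25, 4, 22 and 0 in the P4M clones. It had at most 2 counts in the 3 cKO clones without H19, but also 4 in P4M replicate 2, where H19 was detected, and 0, 30, 16, 1 and 0 in the WT clones. Slc22a18, also maternally expressed there, did not separate them as far, with 40 and 2 counts in P28 replicates 4 and 5 and 19 in P4M replicate 4. In WT this contrast was not seen, since H19 was at most 1 count in 4 clones that all held Peg3 and Ndn. Over the 14 clones H19 had a Pearson r of -0.412 with Peg3 and -0.502 with Ndn in log2 CPM, and of -0.525 and -0.572 after subtraction of the group means.

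The level of chromosome 7 as a whole differed between these clones. For each clone the median over 644 chromosome 7 genes of log2 CPM minus the WT mean was taken, less the same median over all autosomes. It was -0.12 to 0.20 in the WT clones, each set against the other 4. It was -0.24, -0.10 and -0.21 in P28 replicates 1 to 3 and -0.63 in both P28 replicates 4 and 5. The P4M clones were at -0.67, -0.64, -0.69 and -0.69. In these last 6 clones chromosome 7 had the lowest median of the 19 autosomes, and in the other 8 clones it ranked from 3 to 18. Single other autosomes moved about as far in single clones, chromosome 16 to -0.69 in P28 replicate 2 and chromosome 19 to -0.64 in P4M replicate 3. Among the WT clones, other autosomes reached -0.52 in replicate 5 and 0.53 in replicate 3, a wider range than that of chromosome 7. In all 9 cKO clones chromosome 10 was at -0.48 to -0.38 and chromosome 4 at 0.28 to 0.58. Among the cKO clones, the 6 with the low chromosome 7 median are the 3 without an H19 read and the 3 that lacked most reads of the paternally expressed genes there other than Igf2. The osteoblast markers except Dmp1 split the cKO clones in the same way. These 6 clones held 132.3 to 666.2 CPM of Sp7, 916.0 to 1858 CPM of Alpl and 93.8 to 290.1 CPM of Bglap. P28 replicates 1 to 3 held 3.38 to 9.78, 10.5 to 57.9 and 0.167 to 0.495 CPM of them. The WT clones with 0 or 1 count of H19 did not have a low median. No DNA of these clones was analysed here, and the cause was not tested. Chromosome 12, which carries Meg3, was at -0.45 in WT replicate 5 and between -0.06 and 0.01 in the P4M clones, all of which lacked Meg3.

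**Figure D4:**
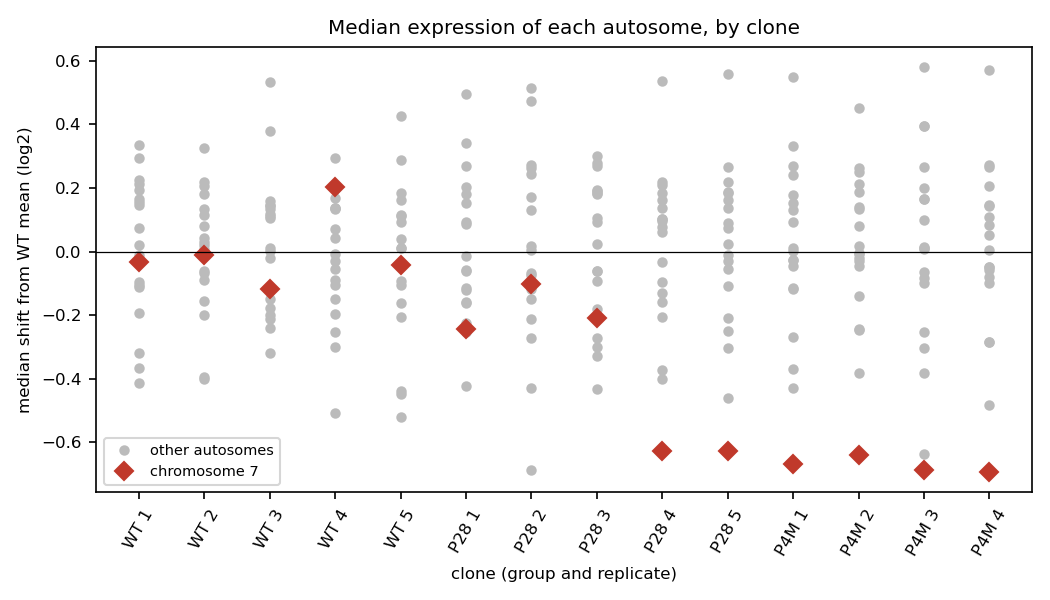
Median log2 difference of each autosome from the WT mean in each clone, less the median over all autosomes, with chromosome 7 as red diamonds and the other 18 autosomes as grey points. Chromosome 7 is the lowest autosome in P28 replicates 4 and 5 and in all 4 P4M clones, at -0.63 to -0.69.

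Within each group the clones spread widely in these genes. In WT the median SD of log2 CPM over the 10 genes was 2.04, beside 0.515 over all tested genes, and 10 of the 10 lay above the latter. It was 1.14 beside 0.326 in P28, with 9 of 10 above, and 0.597 beside 0.307 in P4M, with 8 of 10 above. These are descriptions with no test, and low counts add to the SD of H19, Igf2 and Dlk1. Meg3 had an SD of 5.10 in WT and 3.91 in P28, higher than 99.9% and 99.8% of tested genes. In P4M, where it was near 0 in every clone, its SD was 0.488. Grb10 went from 3.94 in WT to 0.258 in P28 and 0.347 in P4M, and Mest from 3.89 to 1.34 and 0.241. Peg3 moved the other way, from 1.22 in WT and 0.387 in P28 to 3.63 in P4M, and Ndn had 2.26, 2.07 and 4.00.

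Per transcript length, the order of the genes changed between the groups. In WT the highest median was that of Meg3 at 272.8 TPM, followed by Plagl1 at 78.0 TPM, Grb10 at 50.8 TPM and Igf2r at 37.1 TPM, whose clones overlapped. In P28 Mest at 198.9 TPM and Grb10 at 163.7 TPM led with overlapping clones, followed by Igf2r at 53.1 TPM and Plagl1 at 48.0 TPM, which overlapped too. In P4M Grb10 at 135.0 TPM was followed by Igf2r at 39.5 TPM, Plagl1 at 11.9 TPM and Mest at 3.46 TPM, and no clone of one of these 4 overlapped with the next. The medians of H19, Igf2, Dlk1, Peg3 and Ndn were between 0 and 9.61 TPM in all groups.

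Among 38 other imprinted genes tested, 5 rose and 14 fell in all cKO against WT, and 19 were not called. The share of 19 of 38 is close to the background of 48.8%. The 4 called genes that differed most were Asb4, Rian, Dio3 and Cobl. Asb4, part of a ubiquitin ligase complex, rose from at most 0.228 CPM in WT to 0.0202 to 31.5 CPM in P28 and 11.8 to 41.0 CPM in P4M (log2 fold change 7.79 ± 1.72, edgeR, adjusted p = 0.00239). Rian fell (-7.31 ± 1.66, adjusted p = 0.00284). Dio3, an enzyme that inactivates thyroid hormone and the far neighbour of Dlk1, had 1 count in all WT clones together and 0 to 5.07 CPM in the cKO clones (6.25 ± 1.57, adjusted p = 0.00538). Cobl, an actin nucleator next to Grb10, fell from 2.57 to 60.03 CPM in WT to 0.113 to 6.24 CPM in the cKO clones (-4.77 ± 0.78, adjusted p = 0.000304). Between P4M and P28 4 of the 38 were called, beside a background of 7.22%. Rian (-10.66 ± 2.75, adjusted p = 0.0346), Airn (-2.53 ± 0.53, adjusted p = 0.0152) and the tetraspanin gene Cd81 (-1.39 ± 0.39, adjusted p = 0.0463) fell, and Commd1 rose (0.98 ± 0.25, adjusted p = 0.0309).

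Of 11 tested genes that maintain imprints or chromatin, 6 rose and 3 fell in all cKO against WT, with the same background of 48.8%. Uhrf1, which brings the maintenance methyltransferase to replicated DNA, rose from 0.89 to 11.8 CPM in WT to 23.1 to 114 CPM in the cKO clones (log2 fold change 3.92 ± 0.66, edgeR, adjusted p = 0.000383). Dnmt1, that methyltransferase, rose as well (1.29 ± 0.24, adjusted p = 0.000813). Zfp57, a zinc finger protein that protects imprints, was at 2.25 to 7.40 CPM in WT, 15.2 to 29.2 CPM in P28 and 2.84 to 11.9 CPM in P4M. It rose in all cKO against WT (1.49 ± 0.35, adjusted p = 0.00353) and fell in P4M against P28 (-1.68 ± 0.41, adjusted p = 0.0289), the only call of the 11 there, where the background was 7.22%. Arid4a, a chromatin regulator, fell (-0.73 ± 0.22, adjusted p = 0.0138). Of these 4, Dnmt1 and Uhrf1 are also genes of dividing cells.

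Of 11 tested receptors, binding proteins and mRNA regulators of Igf2, 4 rose and 1 fell in all cKO against WT, a share near that background. The binding protein genes Igfbp2 and Igfbp6 rose (log2 fold changes 6.19 ± 1.45 and 5.94 ± 1.51, edgeR, adjusted p = 0.0034 and 0.00565), from 8 counts or fewer in each WT clone. Igf2bp1, which binds the Igf2 mRNA, rose from 0.0809 to 1.45 CPM in WT to 1.79 to 17.2 CPM in the cKO clones (3.47 ± 0.68, adjusted p = 0.00107). Igfbp5 was called lower (-2.62 ± 1.03, adjusted p = 0.0489), with 1.43 to 911 CPM in WT, 15.85 to 101.2 CPM in P28 and 6.92 to 44.9 CPM in P4M. The WT median of 16.6 CPM lay below those of P28 (50.6 CPM) and P4M (23.5 CPM), and the highest WT value was that of replicate 4. Igf2bp3, a relative of Igf2bp1, was the only call of the 11 between P4M and P28, beside a background of 7.22%. It was at 1.32 to 2.66 CPM in P4M and 13.1 to 37.4 CPM in P28 (-3.34 ± 0.87, adjusted p = 0.0358).

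The 5 genes with the pattern most like that of H19 over the 14 clones, among tested genes whose log2 CPM averaged 3 or more, were Hs2st1 (Pearson r of 0.864), Tspan9 (0.834), Foxn3 (0.806), Pgap1 (0.795) and Mfsd1 (0.792). Their r with H19 after subtraction of the group means was 0.914, 0.843, 0.793, 0.802 and 0.777. They were chosen by this measure as the highest of all genes tested at that level. Among the other 9 members the highest r with H19 was that of Dlk1, at 0.6.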

How the data were processed

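The labels and the methods of the study describe cultured clones whose RNA was amplified with SMART-Seq v4, a kit that does not keep the strand, and sequenced as single-end reads. The authors aligned reads to mm10 with TopHat and Bowtie2 and counted non-ambiguous reads per gene with HTSeq, and they deposited these as whole-number counts without normalization. The deposited TPM values were normalized by the authors for transcript length and depth, with a program not given in the sources used here. Tables of expected counts, FPKM, depth-normalized counts and rlog values were not used, since the counts they rest on are at hand.

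The counts were fitted with edgeR 4.0.16 in R 4.3.3 (filterByExpr, TMM, robust quasi-likelihood, 3 group means, 14 clones), with Benjamini-Hochberg adjustment over 17358 genes and calls at 0.05. Log2 CPM used a prior count of 2. The steps were tested on simulated data. Alternatives were RLE or no scaling, no filter, at least 10 counts in every clone, a minimum log2 fold change of 1, DESeq2 1.42.0, limma 3.58.1 on log2(TPM + 1), only the groups compared, and each clone left out. A batch term could not be fitted, because each prefix of the library names held 1 genotype. Replicate numbers are running numbers within a group and pair nothing. No 2 libraries of a group were the same within counting noise (chi-square per degree of freedom of 44.1 to 348.3 over 26 pairs). None was therefore taken for a repeat deposit, which does not show that clones came from separate mice. In P28 this ratio was 44.1 to 87.3 among replicates 1 to 3 and 58.4 between replicates 4 and 5. Across these sets of P28 clones it was 143.3 to 170.1. Positions are from GENCODE M21 (GRCm38), and tables and figures were made in Python 3.11.15.

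The 10 genes, the lists and the rule for named genes were chosen with earlier results of these data known. The rule names every member, the 4 called genes with the largest change of each other list in all cKO against WT and in P4M against P28, the 5 genes most like H19, and Trp53. The look at expressed alleles, at genes with at most 1 count and at chromosome medians (genes whose log2 CPM averaged 3 or more) was added after the values were seen.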

Additional observations from a re-analysis of the deposited data

Results flagged for a closer look

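In 3 of 30 tested sets of values, a gene in 1 group, 1 clone lay apart from the rest by Dixon's criterion on log2 CPM, where chance alone gives about 1.5. Meg3 was at 0.158 CPM in Fgfr3-WT (P23) replicate 5, beside 124.6 to 1319 CPM in the other 4 WT clones. H19 was at 1.11 CPM in the same clone, beside 0 to 0.0383 CPM in the others. Ndn was at 12.7 CPM in Fgfr3-p53 cKO (P4M) replicate 4 and had no read in the other 3 P4M clones. For H19 and Ndn the other clones of the group had at most 1 count each, so the prior count largely sets their spread in log2 CPM. The number given for chance does not allow for such values near 0. What sets these clones apart was not tested.

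The P4M and P28 clones, both cKO, differed by the edgeR test for Meg3 (log2 fold change of P4M against P28 of -10.99), Mest (-5.93) and Plagl1 (-1.83). These groups differ in age at isolation, and no WT clone was isolated at 4 months. They may also differ in passage, which the labels give as 8 for P28 and 6 to 8 for P4M. The difference is therefore not a measure of the cKO. The calls of Meg3 and Mest were lost in 6 and 10 of the 14 fits with 1 clone omitted, and that of Plagl1 in none.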

How the results depend on the processing

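For single genes, 254 of 284 results under the alternatives other than leaving out a clone, and 504 of 560 with a clone left out, kept their direction and their side of the threshold. The number of members called was 1 in P28 against WT, 4 in P4M against WT, 3 in all cKO against WT and 3 in P4M against P28. With at least 10 counts in every clone, which leaves 4 members, it was 0, 2 and 1 in the first 3. With a minimum log2 fold change of 1 it was 2 in P4M against WT and 0 in P4M against P28. With limma on log2(TPM + 1) it was 3 in P28 and 5 in all cKO against WT, and without a filter 1 in P4M against P28. Leaving out 1 clone gave 1 to 3, 2 to 5, 3 to 5 and 1 to 3 calls. The numbers called among other imprinted genes (19), imprint maintenance and chromatin factors (9) and Igf2 receptors, binding proteins and mRNA regulators (5) were 7, 1 and 3 with a minimum log2 fold change of 1. With at least 10 counts in every clone the first was 11 and the last 2, and leaving out 1 clone gave 16 to 24, 6 to 9 and 4 to 5. The median SD of the members was 1.46 in WT and 0.292 in P4M on log2(TPM + 1). With a clone left out it was 1.54 to 2.25 in WT, 0.826 to 1.31 in P28 and 0.498 to 0.691 in P4M, and the r of H19 with Igf2 was 0.261 to 0.529.

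Directions that changed were all of results not called. For Igf2r in P28 against WT the log2 fold change was 0.0035 without scaling, 0.022 without a filter, 0.65 with limma on log2(TPM + 1) and -0.30 to 0.64 with a clone left out. With limma it was 0.042 for Igf2r in P4M, 0.34 for Igf2r in all cKO, 0.034 for Dlk1 in P4M and 0.57 for Mest in all cKO against WT, and -0.35 for H19 in P4M against P28. For Grb10 in P4M against P28 it was 0.013 without a filter. With a clone left out it was 0.031 at most and -1.44 at least for Ndn in P28 against WT, -0.77 to 0.19 for Igf2r and -2.75 to 3.11 for Dlk1 in P4M against WT, -0.54 to 0.42 for Igf2r, -0.31 to 4.72 for Dlk1 and -2.42 to 0.60 for Mest in all cKO against WT, and -5.06 to 1.65 for H19 and -0.18 to 0.082 for Grb10 in P4M against P28. The cause was not tested. With limma on log2(TPM + 1) the median of all genes moved by 0.22 in P28 against WT and 0.11 in P4M against WT, and the share of higher calls was 72.6% and 57.5% in place of 49.4% and 48.6%, and between P4M and P28 23.9% in place of 46.3%. Without scaling that last share was 33.2%, and with a minimum log2 fold change of 1 it was 36.2%. H19, Igf2 and Dlk1 had 30 counts or fewer in many clones, which limits their folds. No paired analysis was possible because the groups hold separate clones and the labels give nothing that pairs them.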
